A study of Mus musculus with 8 samples.

Results

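The genes described here make cholesterol or govern where it goes. They are 28 genes chosen by symbol, all present among the 56691 rows of the deposited count table, all with counts, and all among the 13812 genes that passed the filter on low counts. Of them, 18 encode enzymes of cholesterol synthesis and 10 encode proteins that sense sterols, store them as esters, export them or carry them between membranes. RNA was sequenced from organoids, 3-dimensional cultures of mouse hindstomach (glandular stomach) epithelium taken at embryonic day 18.5. The organoids spent 5 days in growth medium and then 7 days in differentiation medium. The control group (Ctrl, 4 libraries) had the genotype Shh-Cre and the other group (YAP5SA, 4 libraries) the genotype Shh-Cre;YAP5SA. Both groups therefore carry Shh-Cre, a Cre recombinase expressed from the Sonic hedgehog gene, which is active in foregut epithelium. YAP5SA is an active form of YAP, the coactivator that the Hippo kinases restrain, with its inhibitory phosphorylation sites mutated. The labels name no embryo, litter or culture day for a library, so the p-values below rest on library-to-library spread alone, which may be technical.

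Cholesterol is built from acetyl-CoA. The mevalonate pathway makes isoprenoid units, which are joined into squalene, closed into the ring system of lanosterol and trimmed in a series of steps to cholesterol. Most of these enzymes are under the control of the SREBP transcription factors, which the escort protein SCAP carries from the endoplasmic reticulum to the Golgi for activation when sterols are low, and which INSIG proteins hold back when sterols are high. Surplus sterol is esterified, exported by ABC transporters or sensed as oxysterol by the LXR receptors. In epithelium such as that of the stomach, cholesterol serves the membranes of polarised and secreting cells.

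Total counts per library were 17387372 to 25841256. The 28 genes took 0.343% to 0.464% of the counts of a Ctrl library and 0.327% to 0.408% of a YAP5SA library. The YAP target genes Ccn1, Ccn2, Ankrd1 and Amotl2 rose in YAP5SA, and Yap1 itself, whose row may mix endogenous and transgenic transcripts, went from 118 ± 11.0 to 140 ± 2.22 CPM (SD, n = 4 each). CPM are counts scaled to a common library total with TMM factors, and every mean ± SD below is over 4 libraries. Epithelial identity was checked with 12 gastric epithelial markers, whose summed level was 40548 to 56923 CPM in Ctrl and 12471 to 15233 CPM in YAP5SA, with 10 of 12 lower. Gkn1 (16931 to 1360 CPM) and Tff1 (10731 to 1193 CPM) made up much of that sum. The general epithelial markers Cdh1 (2150 to 1249 CPM), Krt8 (5368 to 2388 CPM) and Krt19 (6404 to 3144 CPM) also fell. Of the other general markers, Epcam rose from 296 to 592 CPM and Krt18 was not called (log2 fold change 0.11). Markers of fibroblasts summed to 0.584 to 1.52 CPM in Ctrl and 24.0 to 28.7 CPM in YAP5SA, most of it Vim (54 against 2111 counts), with Col1a2 and Lum at 0 counts in every library. Of the others, Pdgfra (8 against 36 counts) and Pdgfrb (2 against 20) were higher in YAP5SA. Col1a1 (9 against 4), Dcn (3 against 0) and Col3a1 (1 against 0) were not. Leukocyte markers summed to 8.29 to 17.8 and 31.7 to 42.7 CPM, most of it Cd68, with Adgre1 at 0 counts in every library. Markers of smooth muscle, endothelium and neural cells summed to at most 1.67 CPM in any library. Those of squamous forestomach summed to 11.2 to 13.1 CPM in Ctrl and 5.54 to 13.9 CPM in YAP5SA. The part of any of these cell types in the sterol gene results was not tested. In bulk RNA a smaller number of cells of a type and less RNA per cell cannot be told apart. The groups also differ in sex-linked transcripts, with Xist at 8436 to 12237 counts in Ctrl libraries and 0 to 8 in YAP5SA libraries, so genotype and sex cannot be told apart.

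The promoters of the genes are shown first because they share a sequence feature that the choice of genes did not use. RefSeq promoter sequences (GRCm38.p6, from 250 bases before to 50 bases after a start site) matched 23 of the 28 genes, with 31 promoters. Abcg1, Fdft1, Fdps, Sqle and Stard4 had no entry. On either strand, CCAAT, the box bound by the factor NF-Y that often accompanies SREBP sites, was present in a promoter of 20 of the 23 genes (87.0%). The share was 41.1% over all 27025 genes with a promoter in that table and 43.5% over the 10171 of them that were among the genes tested. Counted by promoter, the box was in 21 of 31, against 37.4% of all 32851 promoters. Dhcr7, Insig2 and Pmvk had it in a single promoter of several. TCACNCCAC, a strict core of the sterol regulatory element, was found in Hmgcs1 only, against 1.44% of all genes and 1.40% of tested genes. CACGTG, an E-box, was present in 6 of 23 genes (Abca1, Dhcr7, Hsd17b7, Insig1, Sc5d and Scap), against 8.09% of all genes and 11.7% of tested genes. CATTCC, the core of the TEAD motif through which YAP binds DNA, was in 0 of 23 against 16.6% of all genes and 14.5% of tested genes, and the direct repeat with a spacer of 4 bases that LXR binds was in 0 of 23 against 0.0148% of all genes. No motif contains another, and a match or its absence in this window is a description of sequence only. The 250 bases before the start site follow for 5 genes, with CCAAT boxes (ATTGG where the box is on the opposite strand) and the sterol element in capitals. Hmgcs1 is shown for its sterol element, Mvk for its 5 boxes, Msmo1 for 3 boxes with an RNA level that was not called different between the groups, Ebp for the steepest fall among the enzymes, and Dhcr7 (the third of its 3 promoters in the table) as the single enzyme that rose.
Hmgcs1, chr13:119690101-119690350, plus strand: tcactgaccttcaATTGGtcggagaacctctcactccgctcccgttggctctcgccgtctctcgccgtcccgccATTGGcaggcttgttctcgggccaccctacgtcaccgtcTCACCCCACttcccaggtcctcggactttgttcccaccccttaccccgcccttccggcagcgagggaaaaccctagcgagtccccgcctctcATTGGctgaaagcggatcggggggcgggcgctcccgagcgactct
Mvk, chr5:114444019-114444268, plus strand: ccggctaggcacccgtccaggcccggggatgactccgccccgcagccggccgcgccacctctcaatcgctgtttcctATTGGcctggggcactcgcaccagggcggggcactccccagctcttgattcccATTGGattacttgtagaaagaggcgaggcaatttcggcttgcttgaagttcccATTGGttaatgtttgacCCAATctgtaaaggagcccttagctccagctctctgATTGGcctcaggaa
Msmo1, chr8:64733579-64733828, minus strand: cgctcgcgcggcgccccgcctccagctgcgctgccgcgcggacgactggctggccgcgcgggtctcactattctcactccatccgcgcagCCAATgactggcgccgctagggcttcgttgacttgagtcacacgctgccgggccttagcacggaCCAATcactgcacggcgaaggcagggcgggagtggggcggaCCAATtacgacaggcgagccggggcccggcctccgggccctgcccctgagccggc
Ebp, chrX:8193513-8193762, minus strand: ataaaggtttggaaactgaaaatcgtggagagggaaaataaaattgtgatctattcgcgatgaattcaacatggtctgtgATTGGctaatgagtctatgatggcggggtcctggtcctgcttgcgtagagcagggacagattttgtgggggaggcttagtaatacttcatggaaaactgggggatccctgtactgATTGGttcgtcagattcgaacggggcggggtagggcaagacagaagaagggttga
Dhcr7, chr7:143829964-143830213, plus strand: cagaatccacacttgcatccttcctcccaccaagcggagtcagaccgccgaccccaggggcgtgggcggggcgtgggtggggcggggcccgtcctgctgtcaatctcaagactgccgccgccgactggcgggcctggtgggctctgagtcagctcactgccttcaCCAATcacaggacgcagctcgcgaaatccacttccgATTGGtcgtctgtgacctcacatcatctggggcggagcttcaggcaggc

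Across the 28 genes the change with YAP5SA was modest in size and mostly downward. At an adjusted p under 0.05 (edgeR quasi-likelihood test, Benjamini-Hochberg adjustment over all genes tested), 15 were lower in YAP5SA, 3 were higher and 10 were not called. Called genes were 64.3% of the 28, near the background of 64.5% over all genes tested. Lower calls were 53.6% of the 28 against a background of 31.3%, and higher calls 10.7% against 33.1%. The median log2 fold change was -0.44 for the 28 genes and 0.02 for all genes tested. In 13 of 28 genes the ranges of the 2 groups did not overlap, against a background of 58.7%. Differences of more than 1.5-fold were found for 10 of 28 (background 45.2%) and of more than 2-fold for 4 of 28 (background 25.8%). With scaling by library size alone, the median of all genes moved to 0.19 and that of the 28 genes to -0.26, and the split of calls over all genes moved from 4577 higher and 4330 lower to 5742 and 3201.

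**Figure D1:**
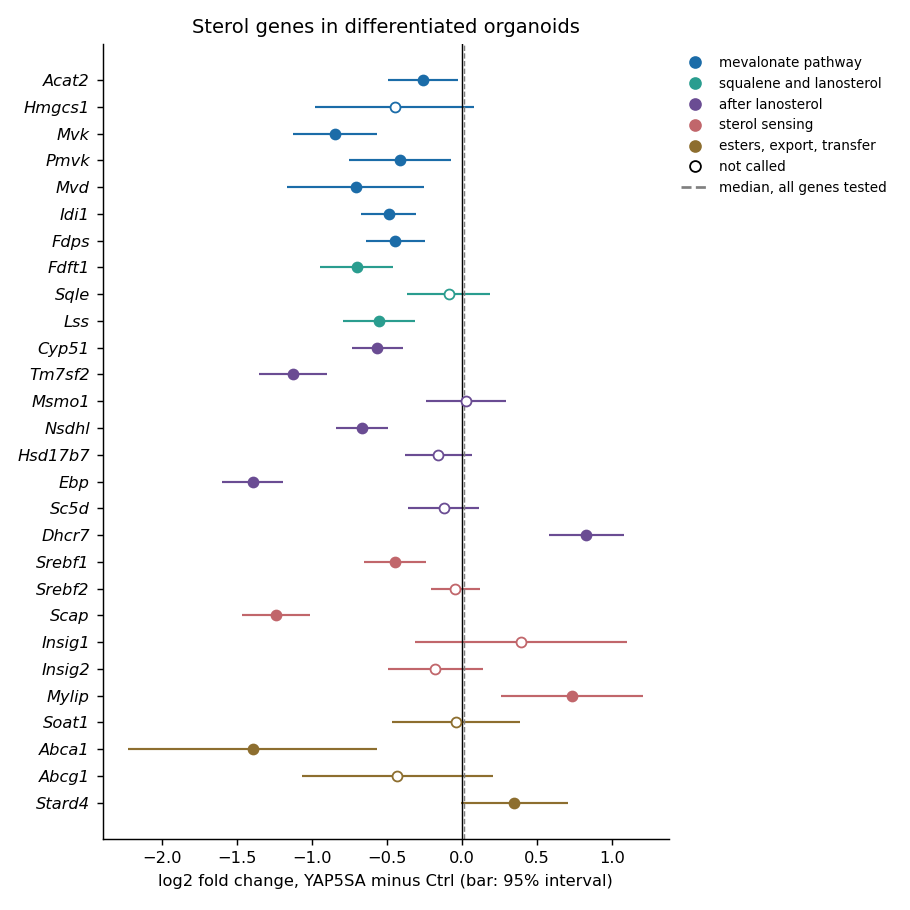
Log2 fold change (YAP5SA minus Ctrl, x axis) of the 28 genes in pathway order from top to bottom, with 95% intervals from the edgeR fit as bars. Filled points passed an adjusted p under 0.05. The bars use 6 degrees of freedom and are not the intervals of the test. That of Stard4 (-0.00686 to 0.708) crosses 0 although Stard4 was called. Ebp and Abca1, both at -1.40, lie farthest left and Dhcr7, at 0.83, farthest right.

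The synthesis enzymes were lower in YAP5SA in 12 of 18 genes (66.7%) and higher in 1 (5.56%), with 5 not called. Over all genes tested 31.3% were lower and 33.1% higher. The median log2 fold change of the 18 enzymes was -0.47. Their summed level went from 3640 ± 496 to 2873 ± 242 CPM, a ratio of 0.789. Per length of transcript (RPKM, CPM per kilobase of transcript), the most abundant enzymes in Ctrl were Msmo1 at 285 ± 41.0, Hmgcs1 at 226 ± 76.7 and Cyp51 at 117 ± 7.05 RPKM (SD). The least abundant were Dhcr7 at 14.8, Mvk at 15.1 and Hsd17b7 at 16.1 on the same scale. In YAP5SA the order changed at its lower end, where Mvk at 8.40 was the least abundant and Dhcr7 at 26.3 stood above Tm7sf2 at 14.3.

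In the mevalonate pathway, 6 of 7 genes were lower (85.7%, against 31.3% of all genes tested) and none was higher. Hmgcs1 encodes the synthase that makes HMG-CoA. It stood at 809, 891, 1026 and 408 CPM in Ctrl replicates 1 to 4 and at 660.3, 618, 602 and 416 CPM in YAP5SA replicates 1 to 4. Replicate 4 was the lowest library of both groups, and the groups overlapped because of Ctrl replicate 4. The log2 fold change was -0.45 (SE 0.22, edgeR adjusted p = 0.0849), and without Ctrl replicate 4 it was -0.68 (adjusted p = 0.000698). With no filter on low counts the log2 fold change of Hmgcs1 was again -0.45, but it was called (adjusted p = 4.62e-07). That fit used the same overlapping libraries, so its smaller p is not further evidence of a difference. Mvk encodes mevalonate kinase. Its levels were 24.6, 20.3, 28.4 and 26.9 CPM in Ctrl and 14.4, 13.5, 13.3 and 14.5 CPM in YAP5SA, so the groups did not overlap. It fell by 0.85 on the log2 scale (SE 0.12, edgeR adjusted p = 1.92e-05), the steepest fall of this stretch. Mvd, the decarboxylase that ends the making of the isoprenoid unit, stood at 54.5, 39.9, 57.8 and 30.3 CPM in Ctrl and 32.8, 30.3, 28.1 and 20.5 CPM in YAP5SA. Its groups overlapped because of Ctrl replicate 4, and it fell by 0.71 (SE 0.19, adjusted p = 0.00409).

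The other enzymes of this stretch fell less. Idi1, the isomerase of the isoprenoid unit, went from 168 ± 14.0 to 120.0 ± 4.54 CPM, a log2 fold change of -0.49 (SE 0.08). Fdps, the synthase of farnesyl diphosphate, from which sterols and other isoprenoids branch, went from 98.2 ± 10.4 to 72.3 ± 1.83 CPM, a log2 fold change of -0.44 (SE 0.08). Neither overlapped between the groups. Pmvk, the second kinase on mevalonate, was at -0.41 (edgeR adjusted p = 0.0176), a call that was lost without Ctrl replicate 3 (adjusted p = 0.0567, log2 fold change -0.35) and without YAP5SA replicate 3 (adjusted p = 0.0559, -0.37). Acat2, the cytosolic thiolase at the entry, was at -0.26 (adjusted p = 0.0267). Removing any of 3 libraries ended this call: Ctrl replicate 4 (-0.23, adjusted p = 0.0605), YAP5SA replicate 3 (-0.20, adjusted p = 0.0866) and YAP5SA replicate 4 (-0.24, adjusted p = 0.0537).

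Of the 3 enzymes that turn farnesyl diphosphate into lanosterol, Fdft1 and Lss were lower and Sqle was not called. Fdft1, squalene synthase, makes the first product committed to sterols. It stood at 265, 259.5, 306 and 219 CPM in Ctrl and 166, 169, 169.7 and 140.2 CPM in YAP5SA. The groups did not overlap and it fell by 0.70 on the log2 scale (SE 0.10, edgeR adjusted p = 2.73e-05). In the GENCODE M21 annotation its exons overlap those of Ctsb on the opposite strand. How reads from the shared stretch were counted is not known without a stated strand setting. Exons of Hmgcs1, Idi1 and Lss also overlap those of other genes on the opposite strand, and exons of Fdps those of Gm43738 on the same strand. Sqle, squalene epoxidase, a rate-limiting step, stood at 220.4, 235, 264 and 165 CPM in Ctrl and 214, 217, 207 and 194 CPM in YAP5SA. The YAP5SA libraries lay within the range of Ctrl, and the log2 fold change was -0.09 (95% interval -0.37 to 0.19, adjusted p = 0.511). Without Ctrl replicate 4 Sqle was at -0.23 (adjusted p = 0.0331), and when scaled by library size at 0.09. Lss, which closes the sterol rings, went from 133 ± 14.0 to 91.1 ± 10.7 CPM, a log2 fold change of -0.55 (SE 0.10) with no overlap.

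After lanosterol the enzymes went different ways, with 4 of 8 lower (50%), 1 higher (12.5%) and 3 not called. Over all genes tested 31.3% were lower and 33.1% higher. Cyp51, the demethylase that acts on lanosterol, stood at 457, 445, 502 and 443 CPM in Ctrl and 320.2, 322, 305 and 301 CPM in YAP5SA. The lowest Ctrl library lay above the highest YAP5SA library, and Cyp51 fell by 0.57 on the log2 scale (SE 0.07, edgeR adjusted p = 6.93e-06). Its exons overlap those of Akap9 on the opposite strand. Tm7sf2, the sterol reductase that follows Cyp51, had 43.8, 46.0, 49.3 and 48.7 CPM in Ctrl and 19.3, 20.3, 23.3 and 23.1 CPM in YAP5SA. It fell by 1.13 (SE 0.09, adjusted p = 1.22e-07), and Lbr, whose product carries out the same reduction, was at 0.06 (SE 0.12, adjusted p = 0.648, and -0.04 without Ctrl replicate 4). Exons of Tm7sf2 overlap those of Vps51 on the same strand.

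Nsdhl and Ebp, both on the X chromosome, were lower in every YAP5SA library than in any Ctrl library. Ebp encodes the isomerase that shifts a double bond of the sterol ring. It stood at 93.4, 92.8, 93.5 and 103 CPM in Ctrl and 34.4, 38.2, 32.8 and 40.0 CPM in YAP5SA. With a fall of 1.40 on the log2 scale (SE 0.08, edgeR adjusted p = 4.51e-09) it was the steepest change among the 18 enzymes. Nsdhl, a dehydrogenase that removes methyl groups from the ring, stood at 128, 120.5, 136 and 129 CPM in Ctrl and 80.2, 81.7, 75.9 and 85.8 CPM in YAP5SA. It fell by 0.67 (SE 0.07, adjusted p = 1.70e-06). Over the 448 X-linked genes tested, 97 (21.7%) were lower and 194 higher, with a median log2 fold change of 0.24. Of all 13240 tested genes with a chromosome in RefSeq, 31.5% were lower and 4469 higher, with a median of 0.02. More than 2-fold lower, as Ebp was, were 8.48% of the X-linked genes and 11.3% of all. Pgrmc1, Chm, Mbtps2 and Mid1ip1 of the neighbouring lists below are also X-linked. Whether the sex-linked difference between the groups touches these genes, Ebp or Nsdhl was not tested.

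Dhcr7, the reductase of the last step in one branch, was the enzyme that rose. It stood at 47.3, 40.2, 44.6 and 34.4 CPM in Ctrl and 82.3, 72.8, 73.9 and 67.0 CPM in YAP5SA. The groups did not overlap and the log2 fold change was 0.83 (SE 0.10, edgeR adjusted p = 7.43e-06), a 1.78-fold higher level. Msmo1, which oxidises ring methyl groups and was the most abundant enzyme per length, went from 583 ± 83.8 to 595 ± 72.3 CPM. Its log2 fold change was 0.03 (95% interval -0.24 to 0.30, adjusted p = 0.833), and -0.05 without Ctrl replicate 1 or 4 and -0.02 without YAP5SA replicate 2. Sc5d, a desaturase, was at -0.12 (95% interval -0.36 to 0.12), and at 0.06 when scaled by library size. Hsd17b7, a ketoreductase, was at -0.16 (95% interval -0.38 to 0.07, adjusted p = 0.15). Without YAP5SA replicate 4 Hsd17b7 was at -0.26 (adjusted p = 0.00956), and when scaled by library size at 0.02.

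**Figure D2:**
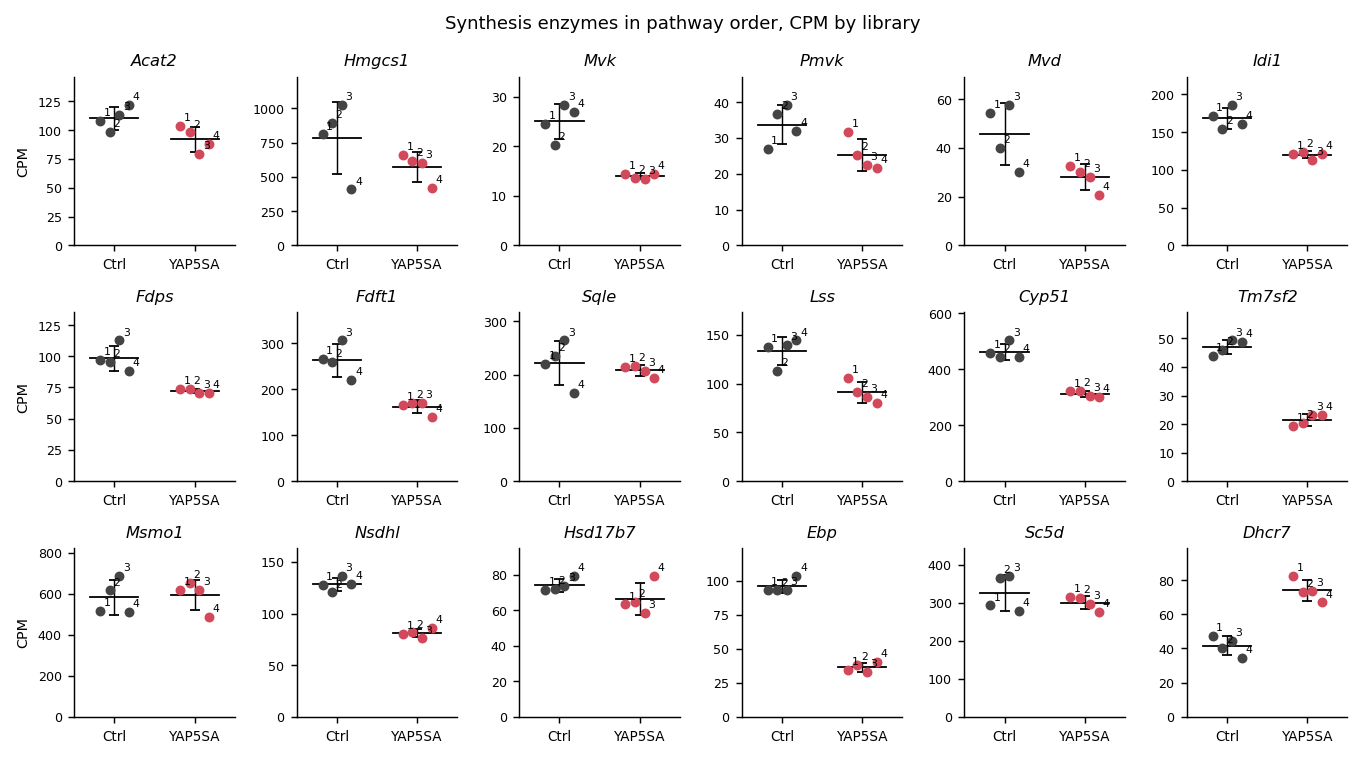
CPM (y axis, from 0) of the 18 synthesis enzymes in pathway order, 1 point per library labelled with its replicate number. Horizontal lines are means and bars are SDs of 4 libraries. The groups are apart for Mvk, Idi1, Fdps, Fdft1, Lss, Cyp51, Tm7sf2, Nsdhl and Ebp, which are lower in YAP5SA, and for Dhcr7, which is higher.

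Among the 10 genes of sensing and handling, 3 were lower (30%), 2 were higher (20%) and 5 were not called. Over all genes tested 31.3% were lower and 33.1% higher. The median log2 fold change of the 10 genes was -0.11, and 0.07 when scaled by library size. Scap, the escort that brings SREBP to the Golgi, stood at 53.4, 62.0, 56.3 and 60.0 CPM in Ctrl and 23.8, 21.7, 24.8 and 27.8 CPM in YAP5SA. Each YAP5SA library was below every Ctrl library, and Scap fell by 1.24 on the log2 scale (SE 0.09, edgeR adjusted p = 5.23e-08). Its exons overlap those of a gene listed as 5830462I19Rik on the opposite strand.

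The SREBP genes differed in their values. Srebf2 encodes the SREBP that mainly drives cholesterol enzymes. It stood at 166, 179, 171 and 169.8 CPM in Ctrl and 175, 158, 171 and 162 CPM in YAP5SA. The groups overlapped, with a log2 fold change of -0.04 (95% interval -0.21 to 0.12, edgeR adjusted p = 0.578). The value was 0.01 with upper quartile scaling and 0.13 when scaled by library size. Srebf1, whose SREBP forms mainly drive fatty acid enzymes, stood at 87.6, 87.0, 89.7 and 81.7 CPM in Ctrl and 66.6, 54.3, 62.0 and 71.0 CPM in YAP5SA. It fell by 0.45 (SE 0.09, adjusted p = 0.000407) with no overlap, and its exons overlap those of Rai1 on the opposite strand. Within libraries, the log2 ratio of Srebf1 to Srebf2 counts went from -0.99 ± 0.07 to -1.40 ± 0.15. The libraries of the groups did not overlap in this ratio (exact permutation p = 0.0286, two-sided, the smallest that 4 against 4 can give). Adjusted over the 3 ratios tested the p was 0.0857.

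The INSIG genes encode the anchors that retain SCAP in the endoplasmic reticulum, and Insig1 varied more between libraries than Insig2. Insig1, itself an SREBP target, stood at 79.7, 91.2, 116 and 32.3 CPM in Ctrl and 115, 123, 119 and 63.7 CPM in YAP5SA. Replicate 4 was the lowest library of both groups by a wide margin. The log2 fold change of Insig1 was 0.39 (95% interval -0.31 to 1.10, edgeR adjusted p = 0.246). With no filter on low counts Insig1 was again at 0.39 but was called (adjusted p = 8.31e-05), on the same overlapping libraries. Insig2, a paralogue not controlled in the same way by SREBP, stood at 99.7, 159, 138 and 113 CPM in Ctrl and 115, 122, 119 and 93.6 CPM in YAP5SA. Its log2 fold change was -0.18 (95% interval -0.49 to 0.14, adjusted p = 0.246), and without Ctrl replicate 1 it was -0.30 (adjusted p = 0.0356). Scaled by library size, Insig2 was at 0.00425. The log2 ratio of Insig2 to Insig1 counts went from 0.79 ± 0.72 to 0.14 ± 0.28 (exact permutation p = 0.0857, two-sided, adjusted p = 0.114 over 3 ratios). In YAP5SA replicates 1 to 3 the log2 ratio was between -0.00306 and 0.00259, and in replicate 4 it was 0.55.

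Mylip, also called IDOL, a ubiquitin ligase that LXR induces and that removes lipoprotein receptors, rose. It stood at 5.08, 6.04, 5.63 and 8.49 CPM in Ctrl and 10.9, 8.06, 9.54 and 13.4 CPM in YAP5SA. The groups overlapped, since Ctrl replicate 4 lay above YAP5SA replicate 2, and the log2 fold change was 0.74 (SE 0.19, edgeR adjusted p = 0.00422). Abca1, which exports cholesterol to apolipoproteins and is another LXR target, went the other way. It had 32, 34, 41 and 33 counts in Ctrl libraries and 9, 19, 8 and 21 counts in YAP5SA libraries, that is 1.71 to 2.01 and 0.409 to 0.989 CPM. The groups did not overlap and the log2 fold change was -1.40 (SE 0.34, adjusted p = 0.0025). At 0.180 RPKM in Ctrl, Abca1 was the lowest of the 28 genes.

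Abcg1, a second sterol exporter and LXR target, stood at 23.4, 27.2, 18.8 and 26.5 CPM in Ctrl and 15.5, 11.2, 12.4 and 31.5 CPM in YAP5SA. YAP5SA replicate 4 was the highest of the 8 libraries, and the other 3 YAP5SA libraries lay below all Ctrl libraries. The log2 fold change was -0.43 (95% interval -1.07 to 0.21, edgeR adjusted p = 0.162). Without YAP5SA replicate 4, Abcg1 was at -0.88 (adjusted p = 0.000282). With no filter on low counts Abcg1 was again at -0.43 but was called (adjusted p = 0.00176), on the same overlapping libraries. The log2 ratio of Abca1 to Abcg1 counts went from -3.67 ± 0.16 to -4.61 ± 0.77 (exact permutation p = 0.114, two-sided, adjusted p = 0.114).

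Stard4, a carrier that moves sterol between membranes and an SREBP target, stood at 128, 129, 147 and 92.2 CPM in Ctrl and 179, 177, 162 and 116 CPM in YAP5SA. The log2 fold change was 0.35 (SE 0.15, edgeR adjusted p = 0.0487), at the edge of the threshold. The call ended in 10 of 18 other analyses. Among them, the value was 0.34 (adjusted p = 0.0825) without Ctrl replicate 1, 0.35 (0.0784) without Ctrl replicate 2 and 0.21 (0.178) without Ctrl replicate 4. It was 0.28 (0.142), 0.29 (0.136) and 0.34 (0.0948) without YAP5SA replicates 1, 2 and 3. Soat1, which esterifies cholesterol for storage, went from 33.8 ± 11.4 to 32.9 ± 3.04 CPM, a log2 fold change of -0.04 (95% interval -0.47 to 0.39, adjusted p = 0.855). Ctrl replicate 1, at 50.3 CPM, held the highest level, and without it the value was 0.19. The value was also above 0 without YAP5SA replicate 4 (0.02) and when scaled by upper quartile (0.01) or library size (0.13). Soat2, the other acyltransferase that makes cholesterol esters, fell by 1.82 (SE 0.17), from 15.1 to 4.26 CPM.

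**Figure D3:**
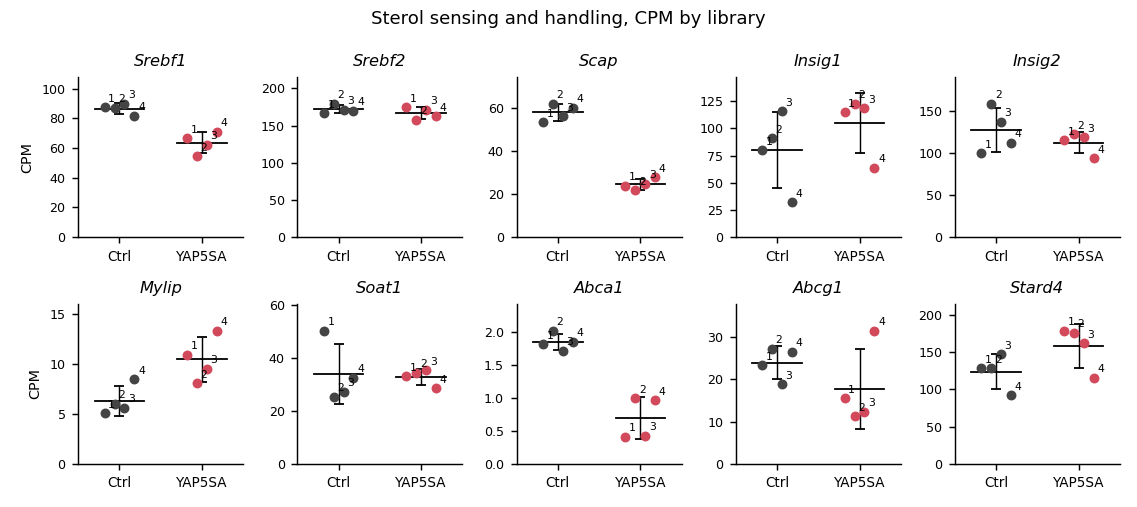
CPM (y axis, from 0) of the 10 genes of sterol sensing and handling, 1 point per library labelled with its replicate number, with means (lines) and SDs of 4 libraries (bars). Srebf1, Scap and Abca1 are lower in all YAP5SA libraries than in any Ctrl library, and replicate 4 is the lowest library of both groups for Insig1 and Stard4.

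Some members shared a pattern among the libraries of a group, seen after their values were known and not tested. The replicate 4 library was the lowest of its group in both Ctrl and YAP5SA for 10 of 28 genes (35.7%), namely Hmgcs1, Mvd, Fdft1, Sqle, Cyp51, Msmo1, Sc5d, Dhcr7, Insig1 and Stard4. The same held for 1764 of 13812 genes tested (12.8%). Other enzymes went the other way, with replicate 4 as the highest Ctrl library for Acat2, Lss, Hsd17b7 and Ebp and as the highest YAP5SA library for Mvk, Nsdhl, Hsd17b7 and Ebp. Ctrl replicate 3 was the highest Ctrl library for 13 of 18 synthesis enzymes (72.2%) and for 19.8% of all genes tested. Insig1 varied widely, with Ctrl replicate 3 at 116 and Ctrl replicate 4 at 32.3 CPM, a gap larger than that between the group means of 79.8 and 105 CPM. With both replicate 4 libraries left out, an analysis added after the data were seen, 12 of 18 synthesis enzymes were lower and 1 was higher. Of all 13907 genes tested in that fit, 4255 were lower and 4476 higher. Among the calls then were Hmgcs1 at -0.54 (edgeR adjusted p = 0.000426) and Hsd17b7 at -0.22 (0.0236), while Acat2 (0.129) and Pmvk (0.0522) were not called. In the same analysis Insig1 was at 0.31 (adjusted p = 0.0343) and Abcg1 at -0.82 (0.000755).

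**Figure D4:**
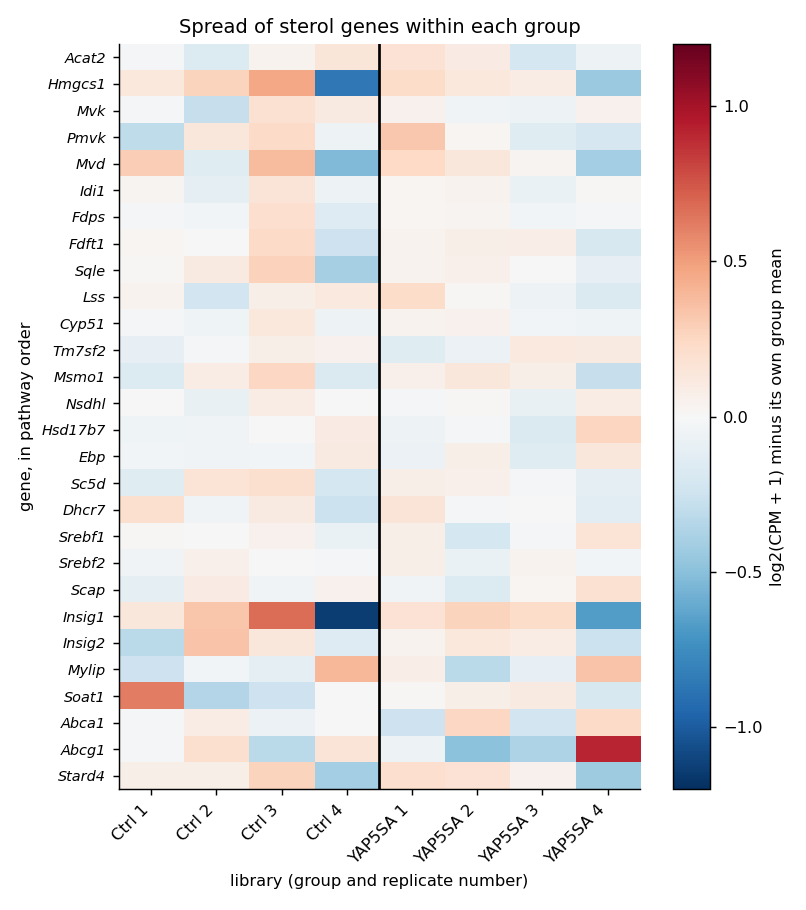
Deviation of each gene from the mean of its own group, on the scale log2(CPM + 1), for the 28 genes (rows, in pathway order) in the 8 libraries (columns). Red is above and blue below the group mean. The 2 replicate 4 columns are blue for Hmgcs1, Mvd, Insig1 and Stard4, and Abcg1 is red in YAP5SA replicate 4.

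Neighbouring genes of sterol metabolism, in lists drawn up from general knowledge, moved in both directions. So did the genes tested as a whole, with 33.1% higher and 31.3% lower. Among proteins that process SREBP or degrade sterol-regulated proteins at the endoplasmic reticulum, 3 of 12 were higher (25%), 3 lower (25%) and 6 not called. The site proteases Mbtps1 and Mbtps2, which cut SREBP in the Golgi, were at -0.03 and 0.01 on the log2 scale, while Pgrmc1, a sterol-binding partner of SCAP and INSIG, rose by 1.13 (SE 0.07) and the ubiquitin ligase gene Rnf145 by 1.02 (SE 0.10). Paqr3, a Golgi anchor of SCAP with 42 and 104 counts over the groups, rose by 1.19 and the ATPase gene Vcp fell by 0.37. Of 6 tested genes of LXR, its partners and its targets, 2 were higher (33.3%) and 3 lower (50%). Rxra, the LXR partner, fell by 1.36 (SE 0.10), the phospholipid enzyme gene Lpcat3 fell by 0.93, and Arl4c rose by 1.44 (SE 0.15). The bile acid receptor gene Nr1h4, in this list as a relative of LXR, was at -3.94, and at -4.64 without YAP5SA replicate 1. It had only 107 counts over the Ctrl group and 7 over the YAP5SA group, so the size of its fall is uncertain. The LXR gene Nr1h3 had 29 and 9 counts over the groups and was not tested, and Nr1h2 rose by 0.30.

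Beside each list here, the shares over all genes tested were 33.1% higher and 31.3% lower. Genes of the isoprenoid branch, which draw on the same mevalonate, had 5 higher (33.3%) and 3 lower (20%) calls among 15. Their median log2 fold change was 0.02. Rabggtb rose by 0.88, Chm by 0.57 and Ggps1, the synthase of geranylgeranyl diphosphate, by 0.52, while Dolk fell by 0.76 on the log2 scale. Of 20 sterol transport proteins 8 were higher (40%), 8 lower (40%) and 4 not called. Npc2, which hands cholesterol out of the lysosome, rose by 0.93, Gramd1a by 1.33 and Osbpl5 by 0.81, while Osbpl2 fell by 0.95. Among 8 tested lipoprotein receptors and adaptors, 3 were higher (37.5%) and 3 lower (37.5%). The endocytic receptor gene Lrp2 rose from 10 to 902 counts (log2 fold change 6.32, and 7.18 without Ctrl replicate 1), Lrp8 rose by 1.38 and Vldlr by 0.53, and Sorl1 fell by 0.62. Of 7 tested genes listed under oxysterol and ester metabolism 3 were higher (42.9%) and 4 lower (57.1%). Ch25h, which makes an oxysterol, was at 0 counts throughout Ctrl and at 14, 19, 12 and 17 counts in YAP5SA replicates 1 to 4, at least 19.3-fold higher with a floor of 3 counts over the Ctrl group. Ephx2, an epoxide hydrolase gene not specific to sterols, fell by 1.72 and Sult2b1 fell by 1.17. Of 14 fatty acid enzymes and related SREBP1 targets, 9 were lower (64.3%) and 5 higher (35.7%), with a median of -0.36. Mid1ip1 fell by 1.67, Me1 fell by 1.66 and Acss2 fell by 1.55, while the desaturase gene Fads1 rose by 2.20.

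**Figure D5:**
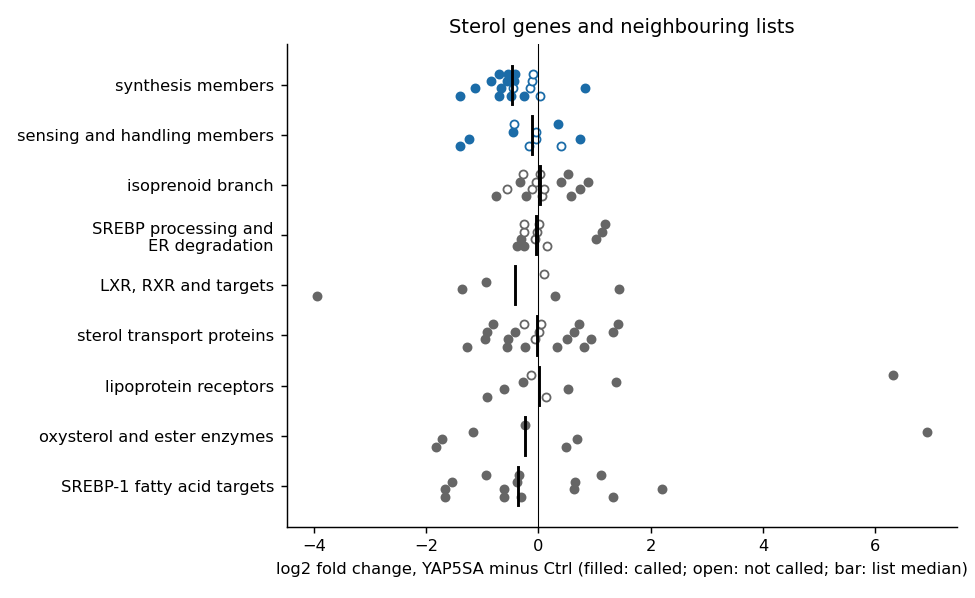
Log2 fold change (YAP5SA minus Ctrl, x axis) of the 18 synthesis enzymes and 10 sensing and handling genes (blue) and of the tested genes of 7 neighbouring lists (grey), 1 point per gene. Filled points were called, open points were not, and bars are list medians. The synthesis enzymes have a median of -0.47, and all lists hold genes on both sides of 0.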

How the data were processed

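RNA was extracted with a Qiagen kit, made into libraries with a VAHTS kit and sequenced from both ends on an Illumina NovaSeq, per the labels' protocols. The deposited table holds counts per gene as whole numbers, not normalized by the authors. The submitters' processing notes name cutadapt, HISAT2 2.0.1, HTSeq 0.6.1 and the build mm9. Annotation, strand setting and filters were not given in the sources used here.

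Groups and replicate numbers came from the sample titles. Tests used edgeR 4.0.16 in R 4.3.3 (filterByExpr, min.count 10, min.total.count 15, TMM scaling, quasi-likelihood F test of YAP5SA against Ctrl with no covariate, two-sided, Benjamini-Hochberg adjustment over 13812 genes, threshold 0.05). The SE of a log2 fold change was taken as its absolute value over the root of F. The 95% intervals use 6 degrees of freedom, so they are not the intervals of the F test. CPM are TMM-scaled. For a gene at 0 counts in a group the floor was 3 counts over that group's TMM-scaled total, which covers counting error only. Count ratios within libraries (0.5 added) were compared by exact permutation in scipy 1.17.1. Levels per length used the longest protein-coding transcript in GENCODE M21 (GRCm38), not the authors' build. Replicates of a group differed by a chi-square per degree of freedom of 4.69 to 34.9, more than counting error alone would give. This value cannot show whether libraries came from the same RNA or the same culture.

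The genes and lists were chosen with earlier results of these data known, and the lists are not complete pathways. Every one of the 28 genes is named. Values in every library are given for the 10 with the largest absolute change and for 12 genes of central steps (3 genes are in both sets, 19 in all), and of each neighbouring list the 4 tested genes with the smallest p. Other list genes named (Mbtps1, Mbtps2, Nr1h2, Nr1h3 and relatives with few counts) were chosen after their values were seen. Alternatives were DESeq2 1.42.0, limma-voom (limma 3.58.1), other scalings, other filters, the replicate number as a block, leaving out genes above 1% of a library, and leaving out each library.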

Additional observations from a re-analysis of the deposited data

Results flagged for a closer look

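In 62 groups of 4 libraries (28 genes and 3 ratios in each genotype), the highest or lowest library was set against the nearest other one, and 4 stood apart by more than Dixon's 95% critical value for 4 samples. Chance alone flags about 1 in 20 groups. In YAP5SA replicate 4, Fdft1 was at 140.2 CPM against 166 to 169.7 CPM in the other 3 libraries of its group. Insig1 in YAP5SA replicate 4 was at 63.7 CPM against 115 to 123 CPM. The log2 ratio of Insig2 to Insig1 was 0.55 in YAP5SA replicate 4 and -0.00306 to 0.00259 in the others. In Ctrl replicate 4, Ebp was at 103 CPM against 92.8 to 93.5 CPM, farther from the YAP5SA libraries than the other Ctrl libraries were. For Fdft1 and Ebp the groups did not overlap with these libraries included.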

How the results depend on the processing

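The call and direction of 15 of the 28 genes were the same in all 18 other analyses. The count of lower synthesis enzymes was 12, and 10 to 13 when each library was left out in turn; the count of higher ones was 1 in every analysis. Over all genes, 8299 to 8972 were called with 1 library left out. Higher sensing and handling genes numbered 1 instead of 2 by DESeq2, limma-voom, RLE scaling or without genes above 1% of a library, since Stard4 lost its call, and 1 to 2 with 1 library left out. They numbered 3 with no filter on low counts, with the replicate block and with both replicate 4 libraries left out. The lower ones numbered 3 to 4. The 3 log2 ratios stayed below 0, from -0.84 to -0.32 for Insig2 to Insig1, -0.48 to -0.36 for Srebf1 to Srebf2 and -1.31 to -0.75 for Abca1 to Abcg1 with 1 library left out. Signs changed only for genes that were not called. Scaled by library size, Sqle was at 0.0886, Hsd17b7 at 0.0162, Sc5d at 0.0578, Srebf2 at 0.13, Insig2 at 0.00425 and Soat1 at 0.13, where the median of all genes was 0.19. With upper quartile scaling Srebf2 was at 0.00924 and Soat1 at 0.0113. Soat1 was at 0.0133 by limma-voom, 0.00204 with the replicate block and 0.00302 with both replicate 4 libraries left out. With 1 library left out, Soat1 ranged from -0.171 to 0.187, Msmo1 from -0.0527 to 0.106 and Lbr from -0.0429 to 0.137. Acat2 lost its call with upper quartile (adjusted p = 0.073) and library size scaling (adjusted p = 0.454), and Pmvk with library size scaling (adjusted p = 0.146).

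Deviations of same-numbered libraries of the 2 groups correlated at 0.0987, 0.0601, 0.114 and 0.365 for replicates 1 to 4. Differently numbered libraries correlated at -0.254 to 0.204. The labels name no pairing and not all same-numbered values were above an arbitrary limit of 0.1, so the numbers were not taken to pair the samples. All same-numbered values were above 0, however, and a batch shared by same-numbered libraries was not tested. A factor shared by the 2 replicate 4 libraries, whose value was the largest, was not tested. With the replicate block, 9174 genes were called instead of 8907, with 13 synthesis enzymes lower, and Hmgcs1 (-0.39, adjusted p = 0.00324), Insig1 (0.48, adjusted p = 0.000914) and Abcg1 (-0.53, adjusted p = 0.00997) gained calls. They also gained calls with no filter on low counts, at log2 fold changes like those of the main fit (-0.45, 0.39 and -0.43). The cause was not tested. Depth limits Abca1, with 140 and 57 counts over the groups.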

Other observations

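Close relatives of the 28 genes gave few further values. Acat1, the mitochondrial relative of Acat2, rose by 0.73 on the log2 scale (SE 0.11, edgeR adjusted p = 4.36e-05), from 46.7 to 77.8 CPM. Abca7, a transporter related to Abca1, fell by 1.32 (SE 0.09, adjusted p = 2.38e-08), from 77.3 to 30.9 CPM. Other relatives lay under the filter on low counts. Over the Ctrl and YAP5SA libraries, Acat3 had 21 and 32 counts, Stard6 had 8 and 26 and Abcg4 had 1 and 0, while Idi2 had 0 in all libraries.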
